A study of Homo sapiens with 12 samples.

Results

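The genes described here are 40 genes of the ATF4 amino acid response and of endoplasmic reticulum (ER) stress, taken from a list of names with no threshold on their values. Of these, 39 had a row among the 31720 genes of the expression table, and CBS, which makes cystathionine from homocysteine and serine, was not analysed here. They fall into regulators of the response, enzymes that make amino acids and one-carbon units, amino acid transporters, other stress outputs, ER stress sensors with XBP1, ER chaperones and folding enzymes, and genes of ER-associated degradation. Transcription was profiled on 12 Affymetrix arrays of triple negative breast cancer cells, 3 in each of 4 groups. The groups were MDA-MB-231 Cas9 control, MDA-MB-231 AHR knockout, SUM149 Cas9 control and SUM149 AHR knockout cells. The SUM149 line comes from an inflammatory breast tumour, and MDA-MB-231 cells are mesenchymal in character. Both genotypes had been transduced with the lentiviral vector lentiCRISPR v2, which carries Cas9, and the knockout cells also received guide RNAs against the first exon of AHR, the aryl hydrocarbon receptor. Transduced cells were diluted into multi-well plates under puromycin, and the sources used here do not say how many clones each knockout line held or whether the 3 arrays of a group came from separate cultures. Selection of clones and loss of AHR therefore cannot be told apart, and p-values reflect only how far these arrays scatter, part of which may be technical. SUM149 cells were grown in F-12K medium with serum, insulin and hydrocortisone, and MDA-MB-231 cells in Dulbecco's modified Eagle's medium with serum, so that line and medium cannot be told apart either.

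ATF4 is a transcription factor whose mRNA is present at rest but is translated efficiently only when the translation factor eIF2 is phosphorylated, for example by GCN2 in amino acid shortage or by PERK (EIF2AK3) in ER stress. It then raises genes for amino acid uptake and synthesis together with its own partners and feedback inhibitors. Unfolded protein in the ER is sensed by PERK, by IRE1 (ERN1), which splices the XBP1 mRNA, and by ATF6, which is cut to release a transcription factor, and together they raise ER chaperones and the machinery that removes misfolded protein. The arrays measured total mRNA per gene, so phosphorylation of eIF2, translation of ATF4, splicing of XBP1 and cleavage of ATF6 were not read.

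The sequences through which these factors are known to act are shown because each is tied to one arm of the response, CARE to ATF4 and ERSE to ATF6 and XBP1. The C/EBP-ATF response element (CARE) was searched as TGATGNAA, the ER stress response element (ERSE) as CCAAT and CCACG with 9 bases of any kind between them, and the AHR element (XRE) as TNGCGTG, on both strands, in RefSeq promoter windows (GRCh38.p14) of 300 bases that run from 250 before to 50 after an annotated start. Windows were found by symbol for 37 of the 40 genes, the others being PSPH, SHMT2 and PDIA3. The CARE letters were found in 7 of the 37 genes, against 4.46% of all genes in the table. By window, they were found in 7 of the 57 windows of these genes, against 3.62% of all 35116 windows. They lay mostly with transporters, as printed here 5′ to 3′ in the direction of the motif, with the motif in capitals and with the coordinates and the position of its first base on the gene's strand. Each position is counted from the annotated start whose window holds the motif. ASNS, SLC1A4, SLC1A5 and SLC3A2 also have annotated starts whose windows lack the CARE letters.
ASNS, chr7:97872469-97872476, 68 bases before the start: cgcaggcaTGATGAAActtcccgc
SLC7A1, chr13:29595674-29595681, base 8 after the start: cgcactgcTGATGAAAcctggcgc
SLC1A4, chr2:64989392-64989399, 7 bases before the start: gctggagaTGATGCAAacgggagc
SLC1A5, chr19:46784904-46784911, 97 bases before the start: gaagtggcTGATGCAAgctgtcca
SLC3A2, chr11:62881736-62881743, base 38 after the start: ggagcTGATGTAAggagtcct
CHAC1, chr15:40953262-40953269, 209 bases before the start: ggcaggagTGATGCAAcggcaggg
HERPUD1, chr16:56931966-56931973, 176 bases before the start: gcacgggcTGATGCAAcccgccgc
The ERSE letters were found in 5 of the 37 genes, against 0.0916% of all genes, and in 7 of the 57 windows, against 0.0769% of all windows. The genes were 3 chaperones of the ER lumen, the membrane chaperone calnexin (CANX) and XBP1. HSP90B1 held the motif on each strand, and the CANX site is given by its distance from 1 of the 3 annotated starts whose windows hold it. CANX and XBP1 each have another annotated start whose window lacks the ERSE letters.
HSPA5, chr9:125241391-125241409, 66 bases before the start: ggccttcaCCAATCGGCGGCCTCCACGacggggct
HSP90B1, chr12:103930216-103930234, 194 bases before the start: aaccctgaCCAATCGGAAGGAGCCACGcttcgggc
HSP90B1, chr12:103930321-103930339, 89 bases before the start: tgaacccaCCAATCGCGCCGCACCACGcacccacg
CALR, chr19:12938384-12938402, 225 bases before the start: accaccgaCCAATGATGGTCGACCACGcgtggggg
XBP1, chr22:28800603-28800621, 52 bases before the start: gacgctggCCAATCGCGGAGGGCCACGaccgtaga
CANX, chr5:179698778-179698796, 151 bases before the start: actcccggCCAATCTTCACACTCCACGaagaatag
The XRE letters were found in a window of ASNS, SLC1A4, SLC1A5, CANX and XBP1, 5 of the 37, against 6.69% of all genes. By window, they were found in 5 of the 57, against 5.51% of all windows. Only exact matches of these letters were sought, so near matches and variant forms of an element are not marked. A gene listed under 1 motif is therefore not assigned to 1 arm of the response. A match of letters is a description of the sequence and not evidence that a factor binds there.

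A promoter window of ASNS, asparagine synthetase, is printed because the gene rose in both lines. The window of another annotated start, chr7:97872116-97872415, holds the XRE letters and not the CARE, and is not printed. The printed window at chr7:97872359-97872658 on the minus strand of GRCh38.p14 has the CARE in capitals.
ASNS: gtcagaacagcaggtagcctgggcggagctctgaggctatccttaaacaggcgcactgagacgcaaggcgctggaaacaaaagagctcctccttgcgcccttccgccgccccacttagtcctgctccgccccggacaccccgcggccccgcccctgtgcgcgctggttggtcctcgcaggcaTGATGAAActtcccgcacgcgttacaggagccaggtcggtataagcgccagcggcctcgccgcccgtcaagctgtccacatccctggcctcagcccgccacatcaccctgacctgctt
The promoter of HSPA5, the ER chaperone BiP, is printed beside it because it is the reference target of the ER arm and its group means lay within 10.97 to 11.10. The window at chr9:125241294-125241593 on the minus strand has the exact ERSE match in capitals.
HSPA5: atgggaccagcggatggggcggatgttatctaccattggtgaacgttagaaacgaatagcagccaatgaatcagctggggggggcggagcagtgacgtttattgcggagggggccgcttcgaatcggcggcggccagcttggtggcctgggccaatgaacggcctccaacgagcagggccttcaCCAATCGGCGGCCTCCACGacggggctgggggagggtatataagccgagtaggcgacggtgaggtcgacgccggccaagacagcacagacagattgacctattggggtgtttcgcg

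Values are log2 expression per gene as deposited, after robust multi-array averaging (RMA). The median of the 39 genes had a replicate SD of 0.0524 to 0.0618, depending on the group, against 0.108 to 0.115 for the median of all genes. Apart from PDIA3, the 38 other genes lay above the median of every array. PDIA3, a disulfide isomerase of the ER, lay below the median of all 12 arrays at group means of 1.96 to 2.44, and its probes did not separate the groups. The row of AHR itself could not be identified from the tables used here, so the knockout was not checked at the transcript level here; the study checked it by sequencing and immunoblot.

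Many of these genes differed a little between AHR knockout and Cas9 control cells, more of them in SUM149 than in MDA-MB-231. In MDA-MB-231, 5 of the 39 rose and 2 fell with an adjusted p no higher than 0.05 (limma, Benjamini-Hochberg over all genes), where 1.73% of all genes rose and 2.19% fell. In SUM149, 13 rose and 7 fell, where 8.59% of all genes rose and 8.23% fell. The 13 rises became 8 without SUM149 control replicate 2 and 7 with SUM149 fitted alone. The 5 rises in MDA-MB-231 became 3 on leaving out 1 MDA-MB-231 array, unless it was control replicate 2, and 3 with that line fitted alone, and the 2 falls became 1 without knockout replicate 3 or with the line alone. The 7 genes in MDA-MB-231 are 17.9% of the 39, where 3.92% of all genes passed, and 6.9% of the 13594 genes above the median of every array. The 20 in SUM149 are 51.3%, where 16.8% of all genes and 31.5% of those brighter genes passed. The median log2 difference of the 39 was 0.04 in MDA-MB-231 and 0.13 in SUM149, against 0 and 0.01 over all genes. Knockout and control arrays did not overlap for 18 of the 39 genes in MDA-MB-231 and 30 in SUM149, or 46.2% and 76.9%, against 22.1% and 31.8% of all genes and 33.5% and 52.3% of the brighter genes. ASNS, PSAT1 and SLC7A1 rose in both lines, as did 0.299% of all genes, and ERN1 fell in both, as did 0.631%. Of the 39, 0 passed in opposite directions, which is near the share over all genes. There, 0.561% fell in MDA-MB-231 and rose in SUM149 and 0.372% went the other way. A further 16 genes passed in SUM149 and not in MDA-MB-231, 3 the other way round and 16 in neither. The largest change in MDA-MB-231 was the fall of ERN1 by 0.58 on the log2 scale, and the largest in SUM149 was the rise of CTH by 0.79, so that no gene of the 39 changed by as much as 2-fold.

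**Figure D1:**
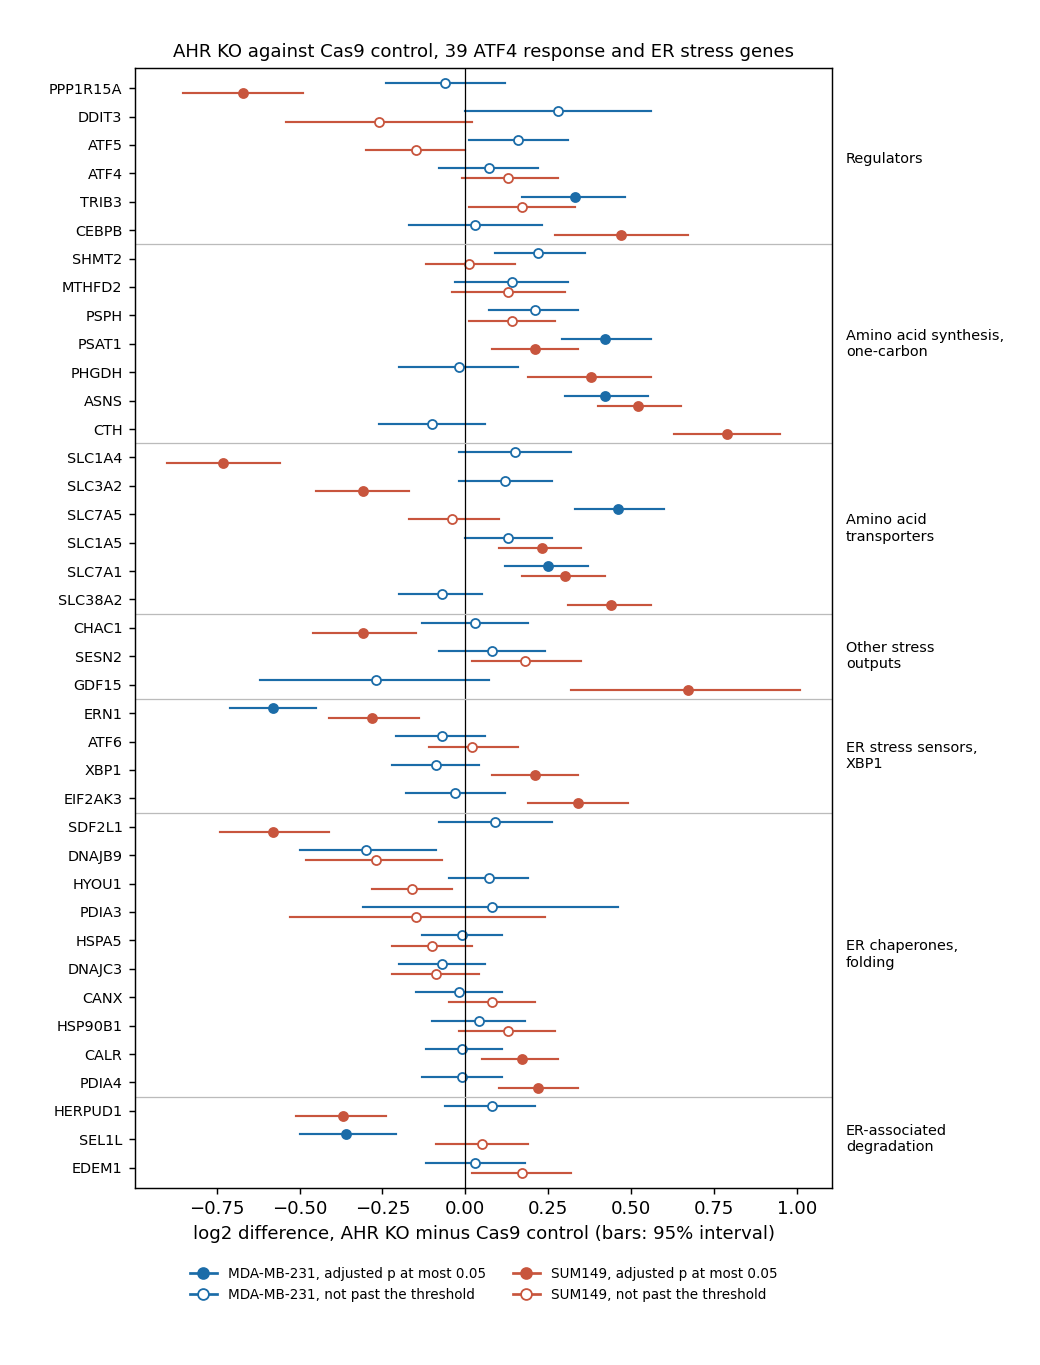
Log2 difference between AHR knockout and Cas9 control cells for the 39 genes, ordered by role, in MDA-MB-231 (blue) and SUM149 (red), with 95% intervals from limma and filled points for genes with adjusted p no higher than 0.05. In SUM149, the filled points run from SLC1A4 at -0.73 to CTH at 0.79, while in MDA-MB-231 only 7 points are filled.

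Of the enzymes that make amino acids and one-carbon units, 2 of 7 rose in MDA-MB-231 and 4 of 7 in SUM149, and none fell. Over all genes, 1.73% rose and 2.19% fell in MDA-MB-231, and 8.59% rose and 8.23% fell in SUM149. At those shares, the absence of falls among 7 genes does not show a shared direction. ASNS (ENSG00000070669_at) makes asparagine from aspartate and is a standard readout of ATF4. Its log2 levels in MDA-MB-231 were 5.85, 5.80 and 5.87 in Cas9 controls and 6.29, 6.28 and 6.22 in knockout cells. In SUM149 they were 6.41, 6.41 and 6.40 in controls and 6.92, 6.88 and 6.99 in knockouts. Every knockout array thus lay above every control array of its line, and the SUM149 controls lay above the MDA-MB-231 knockouts. The rise was 1.34-fold in MDA-MB-231 (log2 difference 0.42, standard error 0.06, adjusted p = 0.00141) and 1.44-fold in SUM149 (0.52, 0.06, adjusted p = 6.32e-05). It passed in each of the 12 fits that left out 1 array, in both lines.

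PSAT1 (ENSG00000135069_at), the transaminase in the middle of serine synthesis, also rose in both lines. Its levels in MDA-MB-231 were 9.94, 10.05 and 9.91 in controls against 10.37, 10.43 and 10.37 in knockouts. In SUM149 they were 10.48, 10.56 and 10.52 against 10.73, 10.77 and 10.70. The groups did not overlap in either line, and the step was larger in MDA-MB-231, at 0.42 (adjusted p = 0.00215), than in SUM149, at 0.21 (adjusted p = 0.031), although the difference between the steps did not pass (-0.21, adjusted p = 0.133). The SUM149 call was lost when any of the 6 SUM149 arrays was left out (adjusted p of up to 0.106) and when SUM149 was fitted alone (adjusted p = 0.0762).

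The other steps of serine synthesis moved less evenly. PHGDH, which takes the first step from glycolysis, rose in SUM149 from 8.55 ± 0.08 (SD, n = 3) to 8.92 ± 0.01 (log2 difference 0.38, adjusted p = 0.00888). In MDA-MB-231 its level was 4.74 ± 0.15 in controls and 4.72 ± 0.09 in knockouts. PSPH, which releases serine in the last step, differed by 0.21 in MDA-MB-231 (adjusted p = 0.0944) and by 0.14 in SUM149 (adjusted p = 0.16). SHMT2 and MTHFD2 pass the carbon of serine into the mitochondrial folate pool. Neither passed in either line, at differences of 0.22 and 0.01 for SHMT2 and 0.14 and 0.13 for MTHFD2, MDA-MB-231 first.

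CTH (ENSG00000116761_at), which cleaves cystathionine to cysteine, had the largest difference of the 39 genes in SUM149. Its levels were 5.33, 5.10 and 5.18 in SUM149 controls and 6.01, 5.98 and 5.99 in SUM149 knockouts. In MDA-MB-231 they were 5.94, 5.76 and 5.88 in controls and 5.69, 5.80 and 5.79 in knockouts. The SUM149 controls were thus the lowest group, and the SUM149 knockouts lay above all other arrays. The rise in SUM149 was 1.73-fold (log2 difference 0.79, standard error 0.07, adjusted p = 2.31e-05), and MDA-MB-231 showed a difference of -0.10 (95% interval -0.26 to 0.06, adjusted p = 0.582).

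Amino acid transporters split by direction. In MDA-MB-231, 2 of 6 rose and none fell, where 1.73% of all genes rose and 2.19% fell. In SUM149 3 rose and 2 fell, where 8.59% of all genes rose and 8.23% fell. SLC7A1 (ENSG00000139514_at), a carrier of arginine and lysine, had levels of 8.26, 8.22 and 8.31 in MDA-MB-231 controls and 8.53, 8.50 and 8.49 in knockouts. In SUM149 they were 8.68, 8.60 and 8.72 against 8.95, 8.97 and 8.96. It was higher in knockouts of both lines without overlap, by 0.25 (adjusted p = 0.0329) and 0.30 (adjusted p = 0.00317). The SUM149 rise passed in all 12 fits without 1 array. The MDA-MB-231 rise was lost on leaving out whichever MDA-MB-231 array, and without SUM149 control replicate 1 or knockout replicate 2 or 3 (adjusted p of 0.0396 to 0.111 over the 12 fits), and in the fit of MDA-MB-231 alone (adjusted p = 0.144).

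SLC7A5 and SLC3A2 form the 2 chains of the leucine transporter LAT1. SLC7A5, the transporting chain, rose in MDA-MB-231 from 10.51 ± 0.06 (SD, n = 3) to 10.98 ± 0.07 (log2 difference 0.46, adjusted p = 0.00113), and in SUM149 stood at 11.19 ± 0.03 and 11.15 ± 0.03. SLC3A2, the chain that brings it to the membrane, fell in SUM149 from 10.82 ± 0.06 to 10.51 ± 0.06 (log2 difference -0.31, adjusted p = 0.0054). In MDA-MB-231 it stood at 9.97 ± 0.04 and 10.09 ± 0.07 (adjusted p = 0.398). Each chain therefore passed in a different line, and for both chains the effect differed between the lines, by -0.50 for SLC7A5 (adjusted p = 0.00236) and -0.43 for SLC3A2 (adjusted p = 0.00872, limma's interaction contrast).

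SLC1A4 (ENSG00000115902_at), which carries alanine, serine and cysteine, had the largest fall in SUM149. Its levels there were 7.84, 7.74 and 7.78 in controls and 7.09, 7.17 and 6.93 in knockouts. In MDA-MB-231 they were 6.81, 6.62 and 6.76 in controls and 6.93, 6.88 and 6.84 in knockouts. SUM149 knockouts came down to the upper end of the range of the MDA-MB-231 arrays and above, and lay 1.66-fold below their controls (log2 difference -0.73, standard error 0.08, adjusted p = 6.39e-05), while MDA-MB-231 differed by 0.15 (adjusted p = 0.378). SLC38A2, the neutral amino acid carrier that amino acid shortage is known to induce, rose in SUM149 from 11.09 ± 0.01 to 11.53 ± 0.04 (log2 difference 0.44, adjusted p = 0.000254) and differed by -0.07 in MDA-MB-231 (adjusted p = 0.618). The glutamine carrier SLC1A5 rose by 0.23 in SUM149 (adjusted p = 0.0206) and differed by 0.13 in MDA-MB-231 (adjusted p = 0.303). Its call was lost without SUM149 control replicate 1 or 2 or knockout replicate 2 or 3 (adjusted p of up to 0.0796) and with SUM149 fitted alone (adjusted p = 0.0791). SLC1A4, SLC1A5, SLC3A2 and SLC7A1 all hold the CARE letters printed above in a window, though SLC1A4, SLC1A5 and SLC3A2 not at every annotated start. In SUM149 SLC1A4 and SLC3A2 fell while SLC1A5 and SLC7A1 rose.

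**Figure D2:**
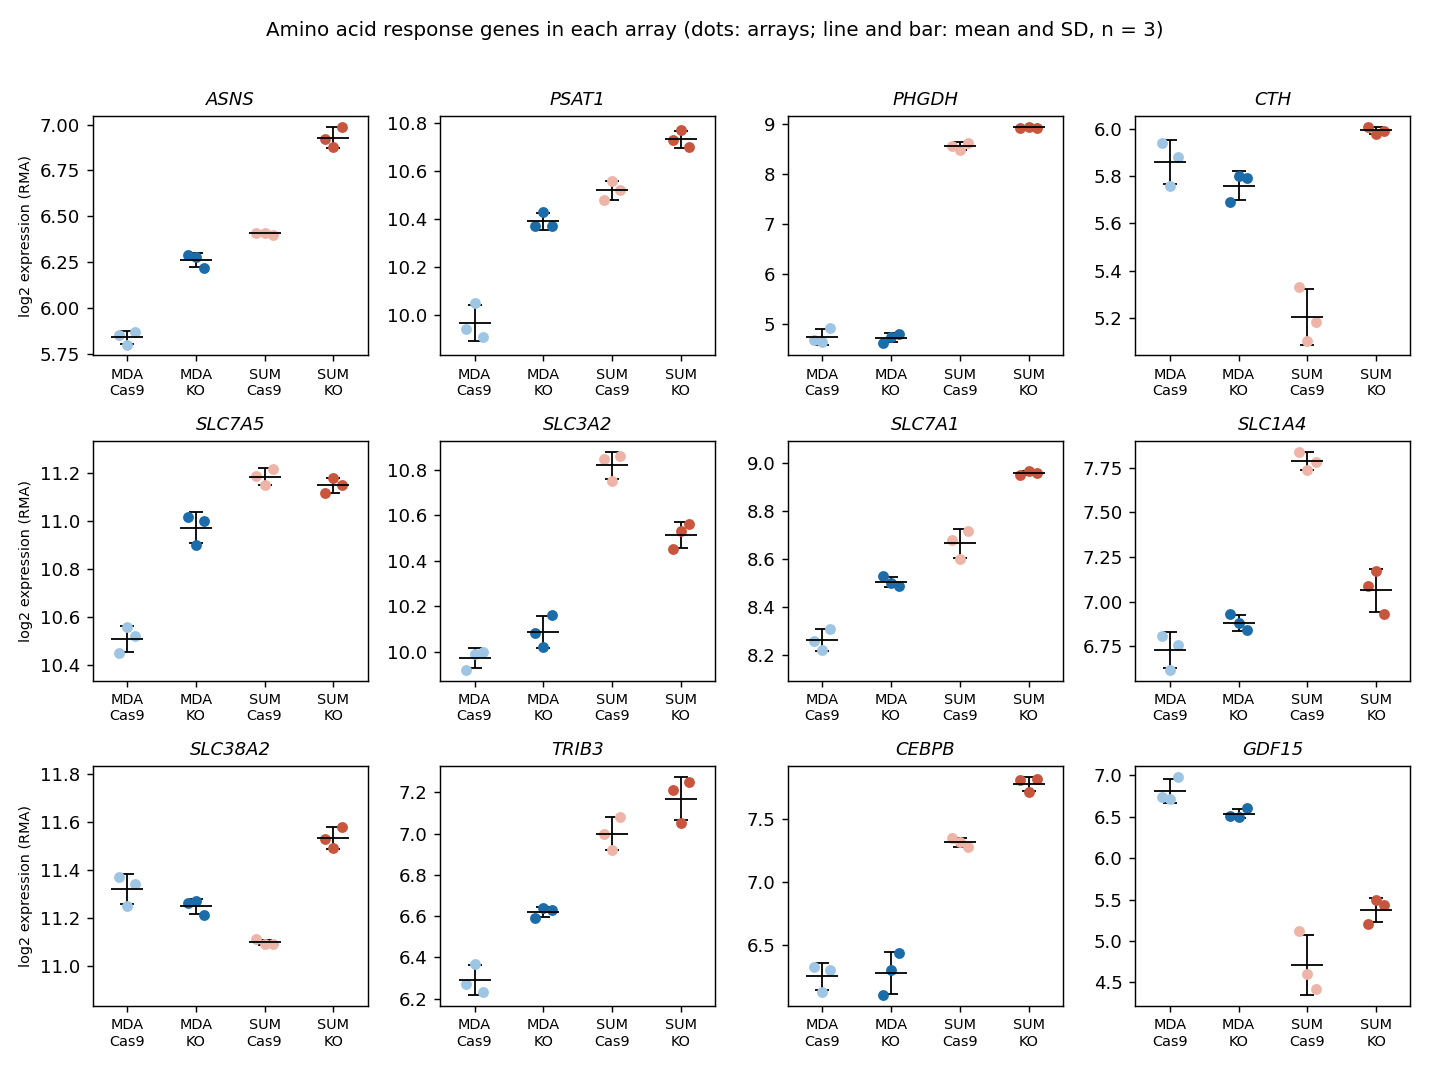
Log2 expression of 12 amino acid response genes in every array (dots), with mean and SD of each group of 3, where MDA stands for MDA-MB-231, SUM for SUM149, Cas9 for Cas9 control and KO for AHR knockout. ASNS, PSAT1 and SLC7A1 step up from control to knockout in both lines, CTH and SLC38A2 in SUM149, and SLC1A4 and SLC3A2 step down in SUM149.

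The mRNA of ATF4 (ENSG00000128272_at) itself did not pass in either line. Its levels in MDA-MB-231 were 6.34, 6.35 and 6.34 in controls and 6.34, 6.42 and 6.48 in knockouts. In SUM149 they were 6.51, 6.42 and 6.44 against 6.51, 6.56 and 6.70. It differed by 0.07 in MDA-MB-231 (95% interval -0.08 to 0.22, adjusted p = 0.683) and by 0.13 in SUM149 (-0.01 to 0.28, adjusted p = 0.229). DDIT3 (CHOP), the factor that ATF4 raises under lasting stress, had levels of 5.13, 4.95 and 4.78 in MDA-MB-231 controls and 5.32, 5.18 and 5.19 in knockouts. In SUM149 these were 4.63, 4.47 and 4.90 in controls and 4.39, 4.23 and 4.60 in knockouts. It differed by 0.28 in MDA-MB-231 (adjusted p = 0.317) and -0.26 in SUM149 (adjusted p = 0.221), and the effects did not differ between the lines at the threshold (-0.54, adjusted p = 0.0788), although they did without SUM149 control replicate 2 (adjusted p = 0.0486) or SUM149 knockout replicate 3 (adjusted p = 0.0473). ATF5, a factor related to ATF4, did not pass either, at 0.16 and -0.15.

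CEBPB and TRIB3 were the regulators that rose. CEBPB, a dimer partner of ATF4, rose in SUM149 from 7.31 ± 0.04 (SD, n = 3) to 7.78 ± 0.06 (log2 difference 0.47, adjusted p = 0.00355), with 6.25 ± 0.11 and 6.28 ± 0.17 in MDA-MB-231. TRIB3, a pseudokinase that restrains ATF4, rose in MDA-MB-231 from 6.29 ± 0.07 to 6.62 ± 0.02 (log2 difference 0.33, adjusted p = 0.0299), and SUM149 stood at 7.0 ± 0.08 and 7.17 ± 0.11 (adjusted p = 0.143). The TRIB3 call was lost without any MDA-MB-231 array other than control replicate 2 (adjusted p of up to 0.104) and with MDA-MB-231 fitted alone (adjusted p = 0.0845).

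PPP1R15A (GADD34, ENSG00000087074_at), the phosphatase subunit that removes phosphate from eIF2 and so ends the response, fell in SUM149. Its levels there were 7.08, 6.95 and 7.07 in controls and 6.26, 6.29 and 6.55 in knockouts. In MDA-MB-231 they were 8.12, 8.06 and 8.11 against 7.98, 8.02 and 8.10. SUM149 knockouts lay 1.59-fold below their controls (log2 difference -0.67, standard error 0.08, adjusted p = 0.000179), and the MDA-MB-231 groups overlapped (difference -0.06, adjusted p = 0.798).

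Outputs of the response did not share a direction. GDF15 (ENSG00000130513_at), a secreted stress cytokine, had levels of 5.12, 4.60 and 4.42 in SUM149 controls and 5.21, 5.49 and 5.43 in knockouts. In MDA-MB-231 these were 6.74, 6.71 and 6.98 against 6.51, 6.50 and 6.60. It rose 1.59-fold in SUM149 (log2 difference 0.67, standard error 0.16, adjusted p = 0.0119), where control replicate 1 lay near the lowest knockout array, and the SUM149 arrays fitted alone gave an adjusted p of 0.0612. In MDA-MB-231 the difference was -0.27 (adjusted p = 0.445). CHAC1, which degrades glutathione, fell in SUM149 from 8.04 ± 0.09 (SD, n = 3) to 7.74 ± 0.06 (log2 difference -0.31, adjusted p = 0.0116), a call that gave an adjusted p of 0.0501 without SUM149 control replicate 2. SESN2, an inhibitor of mTORC1 signalling, differed by 0.08 in MDA-MB-231 (adjusted p = 0.691) and 0.18 in SUM149 (adjusted p = 0.122).

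Among the ER stress sensors, ERN1 (IRE1, ENSG00000178607_at) fell in both lines. Its levels in MDA-MB-231 were 5.95, 6.03 and 6.0 in controls and 5.39, 5.47 and 5.37 in knockouts. In SUM149 they were 5.30, 5.29 and 5.33 against 5.12, 4.98 and 4.99. Knockouts of each line lay below their controls without overlap, by 1.49-fold in MDA-MB-231 (log2 difference -0.58, standard error 0.06, adjusted p = 0.00029) and 1.21-fold in SUM149 (-0.28, 0.06, adjusted p = 0.00776). Both falls passed in all 12 fits without 1 array.

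The other sensors did not fall. EIF2AK3 (PERK) rose in SUM149 from 6.12 ± 0.05 (SD, n = 3) to 6.46 ± 0.07 (log2 difference 0.34, adjusted p = 0.00467) and stood at 6.05 ± 0.10 and 6.02 ± 0.02 in MDA-MB-231. XBP1 rose in SUM149 from 7.49 ± 0.02 to 7.70 ± 0.05 (log2 difference 0.21, adjusted p = 0.0272), against 7.75 ± 0.07 and 7.66 ± 0.04 in MDA-MB-231. That rise was lost without any SUM149 array other than knockout replicate 2 (adjusted p of up to 0.0933) and with SUM149 fitted alone (adjusted p = 0.073). ATF6 differed by -0.07 and 0.02 (adjusted p = 0.648 and 0.881).

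No chaperone or folding enzyme passed in MDA-MB-231, where 3.92% of all genes passed. The differences of these 10 genes ran there from -0.30 to 0.09. In SUM149, SDF2L1 fell and CALR and PDIA4 rose, where 16.8% of all genes and 31.5% of the brighter genes passed. HSPA5 (BiP, ENSG00000044574_at), the central chaperone of the response, stood at 10.98 ± 0.03 (SD, n = 3) in controls of MDA-MB-231 against 10.97 ± 0.03 in knockouts. For SUM149 the levels were 11.10 ± 0.03 against 10.99 ± 0.05. The 95% intervals of its difference were -0.13 to 0.11 and -0.22 to 0.02. SDF2L1 (ENSG00000128228_at), a cofactor in ER protein folding, had levels of 7.25, 7.14 and 7.28 in SUM149 controls and 6.63, 6.66 and 6.66 in knockouts. In MDA-MB-231 these were 6.21, 6.09 and 6.37 against 6.26, 6.35 and 6.34. SUM149 knockouts were 1.49-fold lower (log2 difference -0.58, standard error 0.08, adjusted p = 0.000285), and the MDA-MB-231 groups overlapped.

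The 2 rises among folding genes were small. PDIA4, a disulfide isomerase, rose by 0.22 in SUM149 (adjusted p = 0.0184), a call lost without SUM149 control replicate 2 or 3 or knockout replicate 2 (adjusted p of up to 0.074) and with SUM149 fitted alone (adjusted p = 0.0697). CALR, calreticulin, rose by 0.17 (adjusted p = 0.0454) and lost the call in every fit without 1 array (adjusted p of 0.0572 to 0.137). DNAJB9, an HSPA5 cochaperone, was lower in knockouts of both lines without overlap but passed in neither alone (-0.30, adjusted p = 0.127, and -0.27, adjusted p = 0.0738). HYOU1, DNAJC3, HSP90B1 and CANX differed by at most 0.16 in size in either line and did not pass. Of the 5 genes with the ERSE letters, XBP1 and CALR were past the threshold in SUM149, where 16.8% of all genes and 31.5% of the brighter genes passed. None was in MDA-MB-231, where 3.92% and 6.9% passed. With only 5 genes, these counts cannot be told apart from those shares.

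In ER-associated degradation, each line had 1 gene that fell, where 2.19% of all genes fell in MDA-MB-231 and 8.23% in SUM149. HERPUD1, an ER membrane protein of the degradation complex, fell in SUM149 from 8.80 ± 0.02 (SD, n = 3) to 8.42 ± 0.06 (log2 difference -0.37, adjusted p = 0.00114) and stood at 8.84 ± 0.05 and 8.92 ± 0.05 in MDA-MB-231. SEL1L, the adaptor of the ubiquitin ligase HRD1, fell in MDA-MB-231 from 8.92 ± 0.04 to 8.56 ± 0.08 (log2 difference -0.36, adjusted p = 0.0121) and stood at 8.0 ± 0.06 and 8.05 ± 0.07 in SUM149. The SEL1L call gave an adjusted p of 0.0552 without MDA-MB-231 knockout replicate 3 and 0.0723 with MDA-MB-231 fitted alone. EDEM1, which hands misfolded glycoproteins to degradation, differed by 0.03 and 0.17 (adjusted p = 0.883 and 0.123).

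**Figure D3:**
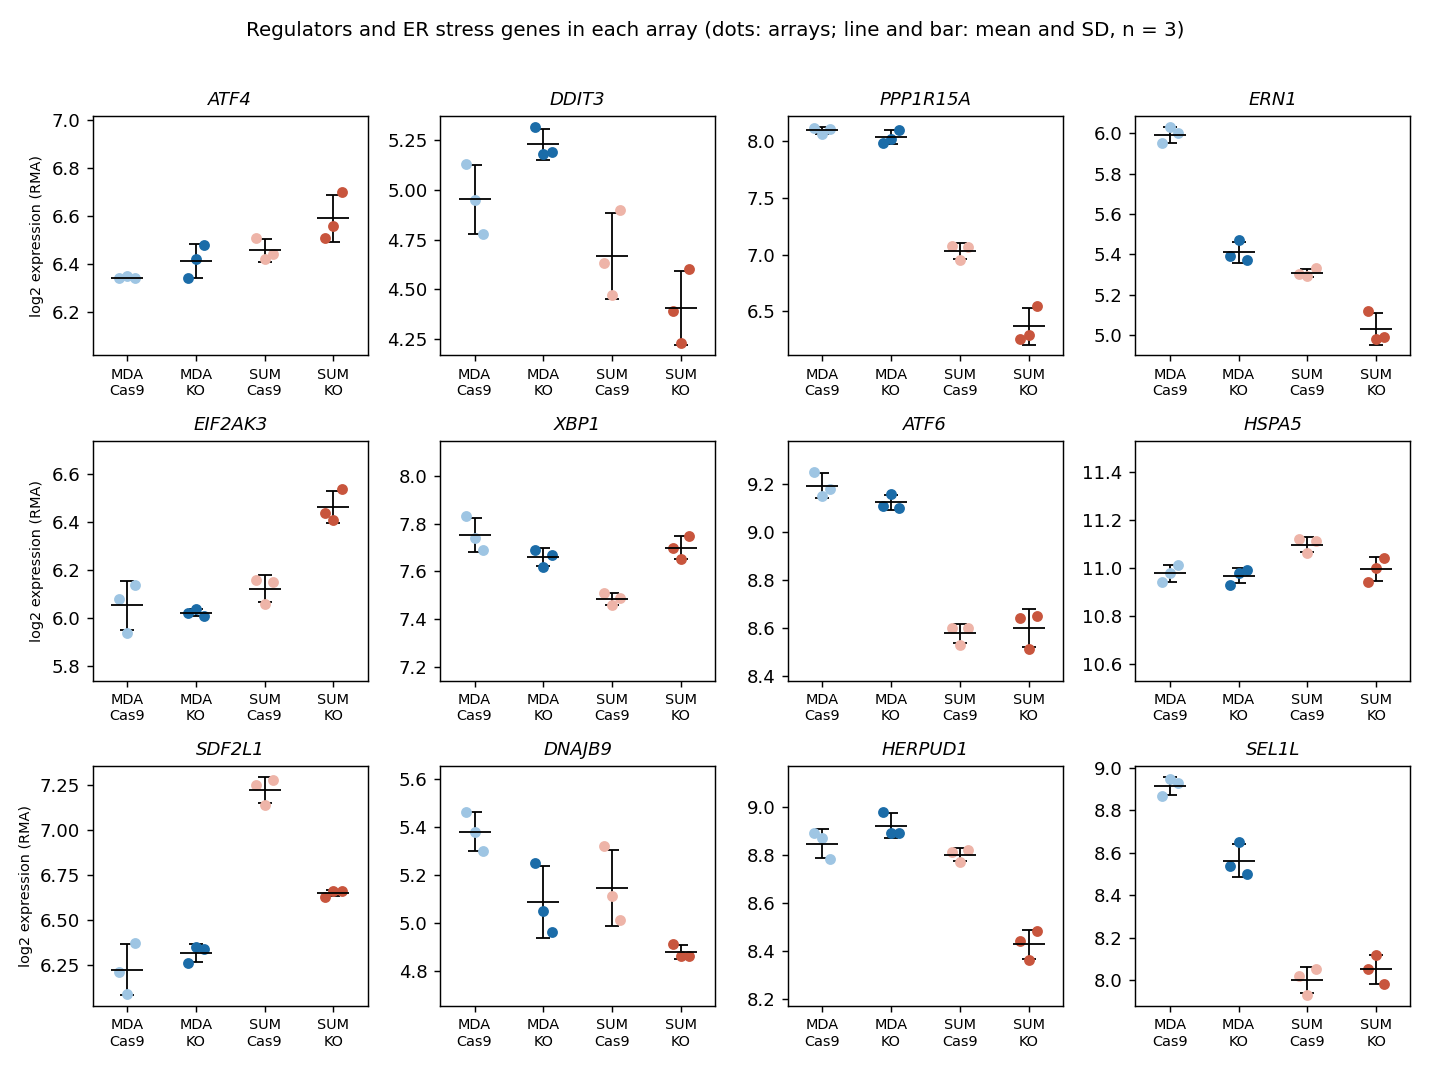
Log2 expression of 12 regulators and ER stress genes in every array (dots), with mean and SD of each group of 3, labelled by line (MDA, MDA-MB-231 and SUM, SUM149) and genotype (Cas9, control and KO, AHR knockout). ERN1 steps down in both lines, PPP1R15A, SDF2L1 and HERPUD1 in SUM149 and SEL1L in MDA-MB-231, while ATF4 and HSPA5 differ little between groups.

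Whether the lines responded differently was tested for each gene by the interaction contrast. The effect differed in 14 of the 39 genes, or 35.9%, where 13.2% of all genes and 24.2% of the brighter genes passed. It was more positive in SUM149 for 8 of them and more negative for 6, against 6.69% and 6.47% of all genes. GDF15 (difference between effects 0.94, adjusted p = 0.0167), CTH (0.89, adjusted p = 0.000223) and SLC38A2 (0.51, adjusted p = 0.00159) had the largest shifts towards SUM149, and SLC1A4 (-0.88, adjusted p = 0.000352), SDF2L1 (-0.67, adjusted p = 0.00179) and PPP1R15A (-0.61, adjusted p = 0.00532) the largest in the other direction. For ERN1, which fell in both, the fall was larger in MDA-MB-231 by 0.30 (adjusted p = 0.0387). ASNS (0.10, 95% interval -0.07 to 0.27) and SLC7A1 (0.05, -0.12 to 0.22) had effects whose difference was bounded within these intervals. Across the 39 genes, the effects in the lines had a Pearson correlation of 0.02 and a Spearman correlation of -0.07, against a Pearson correlation of 0 over all genes, as a description over genes that share their arrays.

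Of the 14 differences between the lines, 10 passed in every fit without 1 array and 4 did not. CEBPB (0.44, adjusted p = 0.0426) lost its call in all 12 but those without MDA-MB-231 control replicate 2 or knockout replicate 3 (adjusted p of up to 0.0943). XBP1 (0.30, adjusted p = 0.0345) lost it in all but those without MDA-MB-231 control replicate 3 or SUM149 knockout replicate 2 (up to 0.0824). ERN1 lost it in all but those without MDA-MB-231 control replicate 1 or knockout replicate 2 or SUM149 knockout replicate 2 (up to 0.0875), and EIF2AK3 (0.37, adjusted p = 0.0276) without MDA-MB-231 control replicate 1 or 3, any MDA-MB-231 knockout, SUM149 control replicate 2 or SUM149 knockout replicate 3 (up to 0.066).

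**Figure D4:**
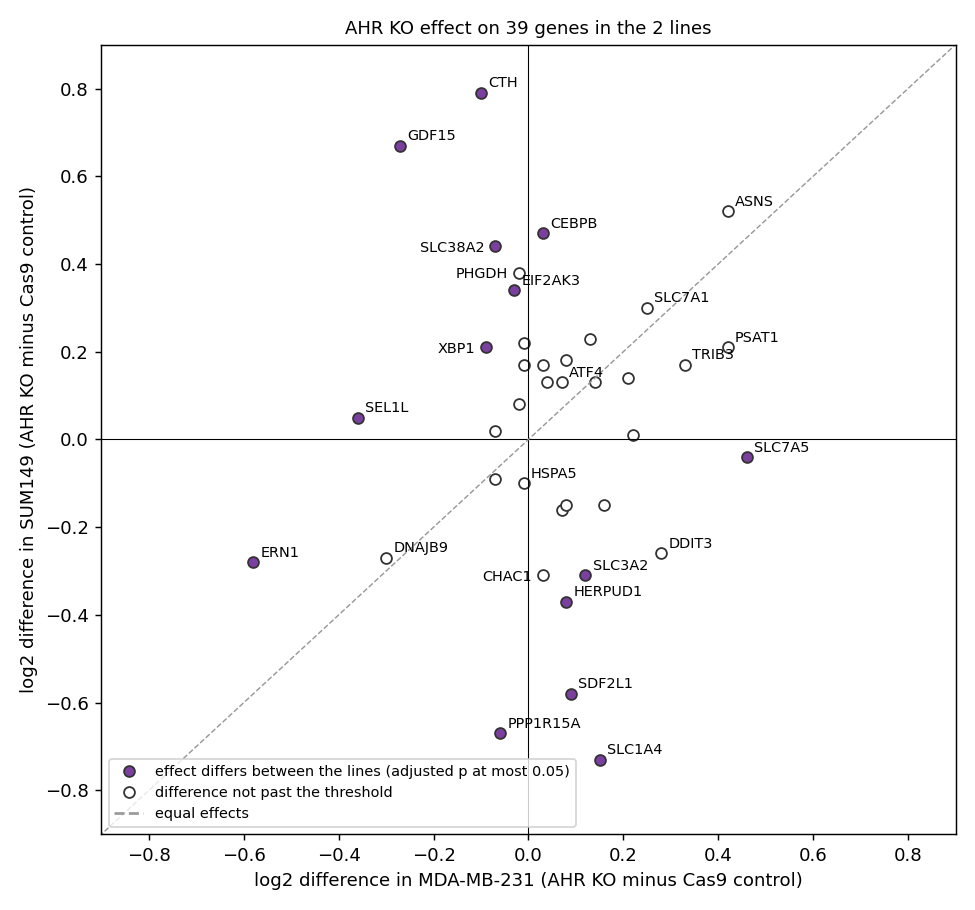
Log2 difference between AHR knockout and Cas9 control in SUM149 (vertical axis) against that in MDA-MB-231 (horizontal axis) for the 39 genes, with filled points for the 14 whose effects differ with adjusted p no higher than 0.05 and a dashed line of equal effects. ASNS, SLC7A1, PSAT1 and TRIB3 lie in the upper right, ERN1 and DNAJB9 in the lower left, and most filled points lie near the vertical axis.

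With 1 knockout effect fitted for both lines, 4 of the 39 rose and 2 fell, or 15.4% against 3.78% of all genes (1.66% that rose and 2.12% that fell) and 7.23% of the brighter ones. The rises were those of ASNS (0.47, adjusted p = 0.000256), PSAT1 (0.32, adjusted p = 0.00981), SLC7A1 (0.27, adjusted p = 0.00794) and TRIB3 (0.25, adjusted p = 0.037). ERN1 (-0.43, adjusted p = 0.00374) and DNAJB9 (-0.29, adjusted p = 0.0381) fell. TRIB3 lost its call in all fits without 1 array but those without SUM149 control replicate 3 or knockout replicate 2 (adjusted p of up to 0.0872). DNAJB9 lost it in all but those without control replicate 3 of either line or MDA-MB-231 knockout replicate 1 (up to 0.0904). This fit uses the same arrays as the tests in each line and is not a separate line of evidence.

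The lines already differed before AHR was removed. Of the 39 genes, 26 differed between Cas9 controls of SUM149 and MDA-MB-231, 13 higher and 13 lower in SUM149, or 66.7% against 35.4% of all genes (17.3% higher and 18.1% lower) and 59.5% of the brighter ones. Controls of the lines did not overlap for 31 of the 39, or 79.5%, against 45.3% of all genes and 69.9% of the brighter ones. These shares lie near those of the brighter genes, and the genes are described for their levels. PHGDH had the largest difference of the 39 and was 14-fold higher in SUM149 (log2 difference 3.81, standard error 0.08, adjusted p = 3.07e-11), with levels of 8.55, 8.47 and 8.62 against 4.67, 4.63 and 4.91. MTHFD2 was 3.01-fold higher (1.59, adjusted p = 1.58e-08) and PSPH 2.51-fold (1.33, adjusted p = 9.27e-09), and PSAT1 and ASNS were also higher, by 0.55 (adjusted p = 1.3e-05) and 0.57 (adjusted p = 6.44e-06). CTH was lower (-0.66, adjusted p = 1.78e-05), while SHMT2 differed by -0.02 (95% interval -0.15 to 0.12).

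Of the transporters, SLC1A4, SLC3A2, SLC7A5 and SLC7A1 were higher in SUM149 controls, by 1.06, 0.85, 0.68 and 0.40 on the log2 scale (adjusted p = 5.26e-07, 5.95e-07, 2.49e-06 and 0.000106). SLC1A5 and SLC38A2 were lower, by -0.38 and -0.22 (adjusted p = 0.000253 and 0.0084). GDF15 was 4.28-fold lower in SUM149 (log2 difference -2.10, adjusted p = 6.2e-07) and PPP1R15A 2.09-fold lower (-1.06, adjusted p = 8.56e-07). CEBPB was 2.09-fold higher (1.07, adjusted p = 1.73e-06), and TRIB3 and CHAC1 were each 0.71 higher (adjusted p = 8.79e-06 and 7.82e-06). ATF5 was lower (-0.30, adjusted p = 0.004), and ATF4 differed by 0.11 (95% interval -0.04 to 0.26, adjusted p = 0.243).

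Among the 17 ER genes, 7 were lower in SUM149 controls, 1 was higher and 9 did not pass. Over all genes, 18.1% were lower and 17.3% higher, and 59.5% of the brighter genes passed in either direction. SEL1L (-0.92, adjusted p = 4.27e-07), ERN1 (-0.68, adjusted p = 2.65e-06), ATF6 (-0.62, adjusted p = 7.23e-06), EDEM1 (-0.48, adjusted p = 0.000127), CANX (-0.38, adjusted p = 0.000271), PDIA4 (-0.37, adjusted p = 0.000208) and XBP1 (-0.27, adjusted p = 0.00367) were lower. SDF2L1 was 2-fold higher (log2 difference 1.00, adjusted p = 7.22e-07). HSPA5 differed by 0.12 (95% interval 0.00 to 0.24, adjusted p = 0.129). The comparison of control lines and that of knockout with control in each line share the control arrays, so their values are given side by side and were not correlated.

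**Figure D5:**
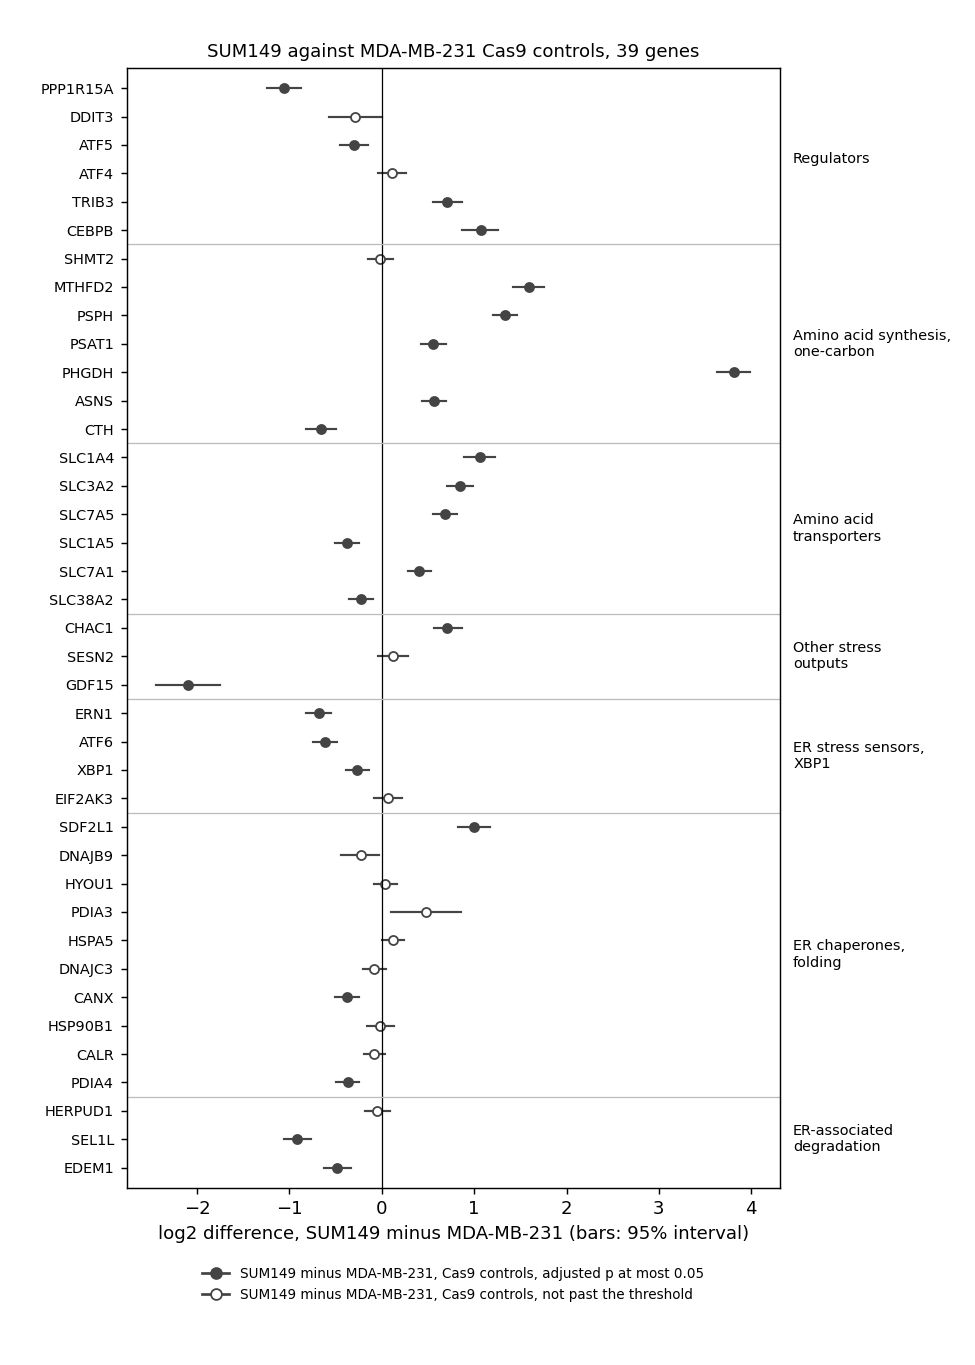
Log2 difference between SUM149 and MDA-MB-231 Cas9 controls for the 39 genes, ordered by role, with 95% intervals from limma and filled points with adjusted p no higher than 0.05. PHGDH at 3.81 and GDF15 at -2.10 mark the ends, and HSPA5, HSP90B1, CALR, HYOU1 and DNAJC3 lie near 0.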

How the data were processed

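Expression was measured on 12 arrays. The authors had summarised and normalised each array by RMA and deposited the result on the log2 scale, with 31720 Ensembl gene IDs as rows, values from 0.33 to 12.72 and 0 missing. The submitters' processing notes name affy 1.48.0 and R 3.2.3. The genome build and how probes were assigned to genes are not given in the sources used here. RMA makes array distributions near-equal, so a shift of most transcripts together would not be seen. Array medians ran from 3.62 to 3.70, at least 31585 genes differed between any 2 arrays, and the lowest correlation within a group was 0.9939.

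The values were tested with limma 3.58.1 in R 4.3.3 (tables with Python 3.11.15 and pandas 2.3.3, plots with matplotlib 3.10.9), using 4 group means (8 residual degrees of freedom) for each line, the interaction and the control comparison, and cell line plus 1 knockout effect (9) across lines. The eBayes step moderated the variances, adjustment ran over all genes, and the threshold was 0.05. The fitting steps were also run on simulated arrays with independent noise and planted knockout effects that were equal in both lines. That run was a check of the code only, and effects of clone or culture were not simulated. The precision is limited by the number of arrays: 3 against 3 cannot go below an exact permutation p of 0.1, so single-gene p-values rest on limma's model.

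Gene names come from the list that defined the genes. The reference table named 0 of the IDs, so the AHR check, other pathway genes and cell type markers set out in the design were not run. Named were ATF4, DDIT3, XBP1, HSPA5 and, in each comparison, the genes past the threshold with the largest changes, with every array given for those past it in both lines or changed by 0.5 or more. Other genes were described by role outside that rule, and ATF4, DDIT3 and PHGDH were given by array, with their values known. The genes, roles, motifs and tests were chosen with earlier results of these data known.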

Additional observations from a re-analysis of the deposited data

Results flagged for a closer look

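The knockout effect differed between SUM149 and MDA-MB-231 by limma's interaction contrast in 14 of the 39 genes, and each was singled out for that reason. Taken as the SUM149 effect less that of MDA-MB-231, in log2 units, it was 0.94 for GDF15, 0.89 for CTH, 0.51 for SLC38A2, 0.44 for CEBPB, 0.41 for SEL1L, 0.37 for EIF2AK3, 0.30 for XBP1 and 0.30 for ERN1. It was -0.88 for SLC1A4, -0.67 for SDF2L1, -0.61 for PPP1R15A, -0.50 for SLC7A5, -0.45 for HERPUD1 and -0.43 for SLC3A2. Adjusted p ran from 0.000223 for CTH to 0.0426 for CEBPB. The lines also differed in culture medium and in their derivation as knockout cells, and the part of either was not tested.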

How the results depend on the processing

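Of 73 gene-level calls across the 5 comparisons, 51 passed in all of the 19 or 20 alternatives run for each at the same threshold, 12 of them without 1 array. That total mixes unlike comparisons. Of the 26 calls between controls, only that of SLC38A2 was ever lost, and these calls were not refitted with the replicate block. The other losses all fell on knockout effects. In MDA-MB-231, TRIB3, SLC7A1 and SEL1L lost theirs, and across lines only ASNS kept its call in every alternative. With a fold change of at least 1.5 also required, MDA-MB-231 had 0 falls and 0 rises, SUM149 had 2 falls and 2 rises, 5 effects differed by line, the fit across lines had 0 of either, and 6 genes were lower in SUM149 controls. With adjusted p held to 0.01, MDA-MB-231 had 1 fall and 3 rises, SUM149 had 7 rises, 8 effects differed by line, and 1 gene fell across lines. Other alternatives raised the counts. With the dimmest 33.3% of genes removed, 19 effects differed by line, MDA-MB-231 had 7 rises and SUM149 had 9 falls. With a variance trend and robust moderation these counts were 20, 7 and 9, and with no variance moderation 19, 7 and 8. Each line fitted on its own 6 arrays gave 1 fall and 3 rises for MDA-MB-231 and 7 rises for SUM149. These fits held fewer arrays, and the cause of these last losses was not tested. Replicate numbers did not pair the arrays (0 of 6 same-number correlations were over 0.1, range -0.0173 to 0.0348). With the replicate number as a block, which left 5 residual degrees of freedom, there was 1 fall and there were 3 rises for MDA-MB-231, 8 rises for SUM149, 9 effects that differed by line, and 0 falls and 1 rise across lines. The difference between the lines in the effect of DDIT3 passed with the block (-0.54, adjusted p = 0.0221), as it did without SUM149 Cas9 control replicate 2 or knockout replicate 3.

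Without 1 array, MDA-MB-231 had 1 to 2 falls and 3 to 5 rises, SUM149 had 6 to 8 falls and 8 to 12 rises, 11 to 13 effects differed by line, the fit across lines had 1 to 2 falls and 3 to 4 rises, and controls had 13 to 14 in each direction. The 8 rises in SUM149 came without SUM149 Cas9 control replicate 2. Among the 90 gene-level values for which alternatives were run, the sign turned for HSPA5 in MDA-MB-231 (-0.03 to 0.01) and DDIT3 across lines (-0.06 to 0.09), neither of which had passed. Median-centred arrays ended the calls of SLC7A1 in MDA-MB-231 (adjusted p = 0.064), CALR in SUM149 (adjusted p = 0.0752) and SLC38A2 between controls (adjusted p = 0.0521). With a variance trend and robust moderation, HSPA5 passed as lower in SUM149 knockouts (-0.10, adjusted p = 0.0173) and higher in SUM149 controls (0.12, adjusted p = 0.00342). HSPA5 also passed as higher in SUM149 controls with no variance moderation (adjusted p = 0.0162) and with median-centred arrays (0.17, adjusted p = 0.0448), and DDIT3 as lower without SUM149 Cas9 control replicate 3 (-0.40, adjusted p = 0.034). A test over named IDs only was not run, since the table used here named none. The 3 arrays per group limit which small differences could pass, and PDIA3 was too dim to be read.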
